A study of Mus musculus with 54 samples.

Results

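The genes described are 10 components and markers of the neural cytoskeleton: the neurofilament subunits Nefl, Nefm and Nefh, alpha-internexin (Ina), nestin (Nes), vimentin (Vim), class III beta-tubulin (Tubb3), doublecortin (Dcx), stathmin-2 (Stmn2) and the microtubule-associated protein Map2. They were taken by gene name, and each name was found in both deposited expression tables, among 38363 entries in the table of retinoic acid (RA) treated cells and 39067 entries in the table of LIF withdrawal and sorted lineages. LIF, leukemia inhibitory factor, is the cytokine that holds mouse embryonic stem (ES) cells undifferentiated. The study followed the long noncoding RNA Haunt and the HOXA genes while mouse ES cells differentiated, and of its 54 samples 20 were behind the columns used, while 34 were not analysed here.

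The 8 RA libraries were RNA-seq of unsorted ES cell cultures of the line 46C, strain 129/Ola, which carries a GFP knock-in at Sox1 and therefore marks neural progenitors. Cells labelled Haunt 58 kb KO, with the 58 kb Haunt locus knocked out in 46C, gave 2 libraries at day 4 (KO-i and KO-j) and 2 at day 2, and 46C cells labelled WT gave WT-1 and WT-2 at day 4 and at day 2. All had spent 1 day in N2B27 serum-free medium with LIF and 2 inhibitors and were then passaged into N2B27 without them, with 2 µM RA. Nothing in the labels says whether KO-i and KO-j were separate clones or whether the libraries of a group were separate cultures, so the p-values rest on a spread that may be technical. The second table had 7 columns. NSC, labelled neural stem cells, were 46C cells differentiated for 6 days in N2B27, sorted for GFP and then expanded in EGF and FGF-2. NPC, labelled neural progenitor cells, were 46C cells sorted for GFP straight after those 6 days. ME, labelled mesendoderm, were sorted GFP-positive T-GFP cells after 6 days without LIF. Wild-type ES cells were taken at 0, 2, 4 and 6 days of LIF withdrawal. For days 0, 2 and 6 the deposited column is a mean that the authors took, of 3, 2 and 3 libraries, and the lines averaged, CJ7 and JF4 (129S1/SVImJ) and J1 (129S4/SvJae), are not the same on each day. Day 4 (CJ7), NSC, NPC and ME were single libraries.

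Intermediate filaments are the rope-like component of the cytoskeleton, and their composition changes as the nervous system forms. Dividing neural progenitors assemble filaments from vimentin and nestin, and neurons replace them with alpha-internexin and then with the neurofilament triplet of light, medium and heavy chains, which fills axons and sets their calibre. Microtubules follow a parallel course: class III beta-tubulin, doublecortin, stathmin-2 and Map2 mark young neurons and serve neurite growth, though vimentin is also abundant in mesenchymal and many cultured cells, and several of these transcripts have been described at low level outside the nervous system.

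Promoter sequence is shown for 4 genes that moved in opposite directions during RA treatment, Nes and Vim, which rose, and Ina and Tubb3, which fell. RefSeq promoters (GRCm38.p6; 250 bases before to 50 after the annotated start) were matched by symbol for 6 of the 10 genes; Nefl, Nefm, Nefh and Stmn2 had no entry. Capitals mark the CCAAT box, the TATA box spelled TATAAA, and the GC box spelled GGGCGG, on either strand. On the reverse strand the first of these reads ATTGG and the last reads CCGCCC.
Nes, chr3:87970843-87971142 (+ strand): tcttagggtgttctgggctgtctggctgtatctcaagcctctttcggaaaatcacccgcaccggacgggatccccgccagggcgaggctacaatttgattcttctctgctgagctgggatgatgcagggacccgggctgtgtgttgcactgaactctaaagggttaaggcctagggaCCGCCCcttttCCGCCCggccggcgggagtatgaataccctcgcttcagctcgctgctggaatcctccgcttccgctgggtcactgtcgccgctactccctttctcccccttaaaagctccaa
Vim, chr2:13574061-13574360 (+ strand): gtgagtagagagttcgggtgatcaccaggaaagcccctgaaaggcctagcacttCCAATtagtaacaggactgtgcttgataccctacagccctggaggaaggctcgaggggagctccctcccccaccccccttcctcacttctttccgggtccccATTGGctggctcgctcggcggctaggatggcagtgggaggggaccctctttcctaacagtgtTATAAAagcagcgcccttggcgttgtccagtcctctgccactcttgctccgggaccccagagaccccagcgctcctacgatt
Ina, chr19:47014431-47014730 (+ strand): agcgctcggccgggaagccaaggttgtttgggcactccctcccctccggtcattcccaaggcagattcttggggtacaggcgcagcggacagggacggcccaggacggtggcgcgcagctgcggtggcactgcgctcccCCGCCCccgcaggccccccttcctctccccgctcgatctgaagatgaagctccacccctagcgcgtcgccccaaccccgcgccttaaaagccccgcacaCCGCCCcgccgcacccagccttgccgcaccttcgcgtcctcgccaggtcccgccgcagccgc
Tubb3, chr8:123411303-123411602 (+ strand): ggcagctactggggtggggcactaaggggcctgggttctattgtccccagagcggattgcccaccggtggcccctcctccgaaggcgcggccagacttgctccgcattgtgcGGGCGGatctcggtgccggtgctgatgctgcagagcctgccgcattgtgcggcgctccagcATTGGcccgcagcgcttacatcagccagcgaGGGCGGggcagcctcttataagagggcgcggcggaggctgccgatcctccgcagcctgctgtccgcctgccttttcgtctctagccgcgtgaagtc
The Vim window held TATAAA 32 bases before the start and CCAAT at −196 and, on the other strand, at −94. Tubb3 held CCAAT on the other strand at −77 and GGGCGG at −138 and −46, Nes held GGGCGG on the other strand at −73 and −62, and Ina held it there at −111 and −12. Among 32851 promoters of the same length, 13.6% held TATAAA, 37.4% CCAAT and 35.7% GGGCGG on either strand, so that only TATAAA was an uncommon word. GC content was 58.7% for Nes, 59.3% for Vim, 71.7% for Ina and 67.3% for Tubb3. The word TTCAGCACC, which begins the repressor element bound by REST, was in 0.371% of all promoters and in none of the 6. The searched words did not overlap one another, and a match or its absence is a description of the letters only.

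Values were FPKM, fragments counted relative to transcript length and to the depth of the library, so that levels of different genes can be set side by side within a table. Depth, estimated from the smallest steps between values, ran from 9050000 to 16400000 reads in the RA libraries and from 27800000 to 40600000 reads in the columns of the LIF table that hold 1 library. Gm15055, the entry for Haunt, had 3.08 and 0.447 FPKM in KO libraries at day 4, against 31.8 and 40.6 FPKM in WT, and 1.13 and 0 FPKM in KO libraries at day 2, against 128 and 142 FPKM in WT, so each library's level went with its genotype label. The first principal component of the 8 libraries carried 61.3% of the variance and separated the days, and the second carried 14.1%. On the second, KO-i lay at −23.4 (day 2) and −35.8 (day 4), and KO-j at 1.64 and −1.48. WT libraries lay between 5.81 and 25.4, so all KO libraries were below all WT libraries, with KO-i furthest. The sorted libraries fitted their labels at T, at 192 FPKM in ME and 0.492 in NPC, and at Sox1 in NPC, at 21.8 FPKM against 0.226 at day 0. T also had 204 FPKM at day 4 of LIF withdrawal, so it did not set ME apart from that column. Pou5f1, a marker of undifferentiated ES cells, had 0.391 FPKM in NSC, 91.0 in NPC and 486 in ME, against 997 at day 0. NPC and ME thus kept transcripts of this marker. In NSC, Sox1 had 0.910 FPKM after expansion, with Fabp7, a radial glia gene, at 1227 FPKM.

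Between day 2 and day 4 of RA, Nes and Vim rose while Ina, Nefh, Tubb3 and Stmn2 fell. Of the 10 genes, 8 passed the filter (1 FPKM or more in 2 or more RA libraries) and were tested, in 1 limma fit over 15705 genes. At day 4 against day 2, 2 rose and 4 fell in KO cells, and the same 2 rose and the same 4 fell in WT cells, with a Benjamini-Hochberg adjusted p under 0.05. Among all genes tested, 10.0% rose and 7.81% fell in KO cells, and 14.4% rose and 10.9% fell in WT cells. The median log2 change of the 8 was −0.82 in KO cells and −0.57 in WT cells, against 0.037 and 0.042 over all genes. With the 4 KO libraries fitted alone, none of the 6 calls in KO cells held (adjusted p = 0.0524 to 0.0998). In RNA from mixed cultures, fewer cells of a type and less RNA per cell cannot be told apart.

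**Figure D1:**
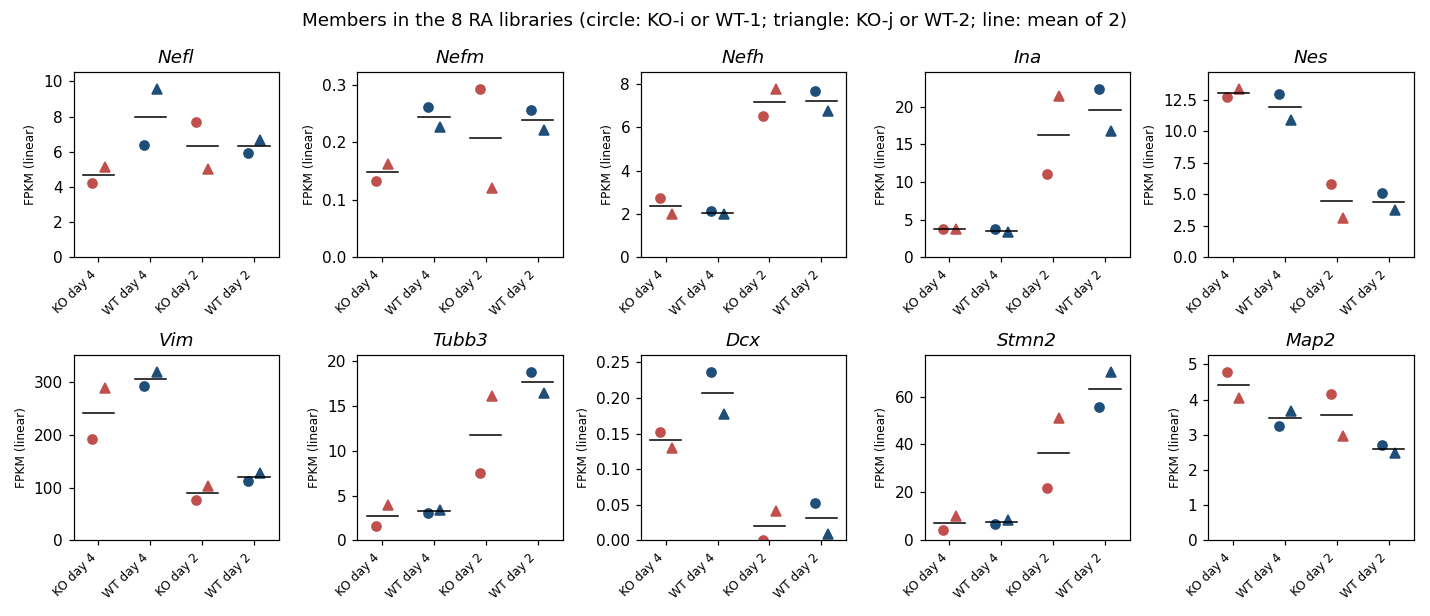
FPKM (linear axes, each starting at 0) of the 10 genes in the 8 RA libraries, with KO libraries in red, WT libraries in blue, circles for KO-i and WT-1, triangles for KO-j and WT-2, and lines for the mean of 2 libraries. Nes and Vim are high in the 4 day 4 libraries, and Nefh, Ina, Tubb3 and Stmn2 are high in the 4 day 2 libraries.

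Vim (chromosome 2, 13495938 to 13504453, plus strand, mm9), the intermediate filament protein of progenitors and mesenchymal cells, was the most abundant of the 10 in every RA library. It had 192 FPKM in KO-i, 290 in KO-j, 293 in WT-1 and 319 in WT-2 at day 4. Its day 2 values were 75.9 FPKM in KO-i, 103 in KO-j, 112 in WT-1 and 127 in WT-2. Every day 4 library was thus above every day 2 library, and KO-i was the lowest at both days. The rise was 1.41 ± 0.21 on the log2(FPKM + 1) scale in KO cells (limma estimate ± SE, adjusted p = 0.00772) and 1.35 ± 0.21 in WT cells (adjusted p = 0.00484).

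Nes (chromosome 3, 87775015 to 87784373, plus strand) encodes the long filament protein that marks dividing neural progenitors and pairs with vimentin. It had 12.7 FPKM in KO-i, 13.4 in KO-j, 13.0 in WT-1 and 10.9 in WT-2 at day 4, and 5.79, 3.10, 5.12 and 3.71 FPKM in the same order of names at day 2. The 2 days did not overlap in either genotype. Its rise was 1.41 ± 0.25 in KO cells (limma, adjusted p = 0.0122) and 1.26 ± 0.25 in WT cells (adjusted p = 0.0108). The WT call was lost when WT-2 at day 2 or WT-1 at day 4 was left out (adjusted p = 0.0748 and 0.0691), and the KO call when KO-i at day 4 was left out (adjusted p = 0.0501), the change staying at or above 1.05 on the log2 scale in these fits. Over all alternatives the adjusted p of Nes ran from 0.00476 to 0.0807 in KO cells and from 0.0043 to 0.0748 in WT cells.

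Ina (chromosome 19, 47089188 to 47098836, plus strand), the alpha-internexin of young neurons, fell. It had 3.70 FPKM in KO-i, 3.79 in KO-j, 3.76 in WT-1 and 3.29 in WT-2 at day 4. In the day 2 cultures it had 11.1 FPKM in KO-i, 21.5 in KO-j, 22.4 in WT-1 and 16.8 in WT-2. The 4 day 4 libraries lay close together, below all 4 day 2 libraries, of which KO-i was the lowest. The change was −1.80 ± 0.28 in KO cells (limma, adjusted p = 0.0082) and −2.17 ± 0.28 in WT cells (adjusted p = 0.00232). Its mm9 interval overlaps the edge of Nt5c2 in the RA table, at 3.29 to 22.4 FPKM for Ina and up to 22.2 FPKM for Nt5c2, and since the RA libraries did not mark strand, reads of the shared stretch cannot be told apart.

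Nefh (chromosome 11, 4838759 to 4848067, minus strand), the heavy neurofilament chain, had 2.73 FPKM in KO-i, 2.01 in KO-j, 2.12 in WT-1 and 2.01 in WT-2 at day 4. At day 2 it had 6.55 FPKM in KO-i, 7.79 in KO-j, 7.68 in WT-1 and 6.75 in WT-2. All 4 early libraries exceeded all 4 late ones, and genotypes overlapped at both days. The change was −1.28 ± 0.17 in KO cells (limma, adjusted p = 0.00585) and −1.42 ± 0.17 in WT cells (adjusted p = 0.00181). Nefh overlaps the start of Ap1b1, an adaptor subunit gene on the other strand with up to 65.9 FPKM in the RA table, and reads from the overlap cannot be assigned without strand.

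Nefl (chromosome 14, 68701941 to 68705794, plus strand), the light chain on which neurofilaments are built, had 4.23 FPKM in KO-i, 5.11 in KO-j, 6.40 in WT-1 and 9.59 in WT-2 at day 4. At day 2 it had 7.66 FPKM in KO-i, 5.04 in KO-j, 5.94 in WT-1 and 6.67 in WT-2. The days overlapped in both genotypes, and the change missed the threshold at −0.36 ± 0.24 in KO cells (limma, adjusted p = 0.326) and 0.28 ± 0.24 in WT cells (adjusted p = 0.422). Nefm, the medium chain, lies 31807 bp from Nefl on the opposite strand of chromosome 14 (68737602 to 68743061) and ran from 0.121 to 0.293 FPKM over the 8 libraries, below the filter of 1 FPKM.

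Stmn2 (chromosome 3, 8509527 to 8561604, plus strand), a neuron-enriched stathmin that binds tubulin and is concentrated in growth cones, showed the largest change of the 8 tested genes in each genotype. It had 4.23 FPKM in KO-i, 10.2 in KO-j, 7.01 in WT-1 and 8.70 in WT-2 at day 4. Day 2 libraries had 22.0 FPKM in KO-i, 51.2 in KO-j, 55.8 in WT-1 and 70.2 in WT-2, so all early libraries were above all late ones. The change was −2.18 ± 0.44 in KO cells (limma, adjusted p = 0.0186) and −2.85 ± 0.44 in WT cells (adjusted p = 0.00461).

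Tubb3 (chromosome 8, 125935464 to 125945910, plus strand), the beta-tubulin isotype used as a neuronal marker, fell alongside. It had 1.55 FPKM in KO-i, 3.89 in KO-j, 3.07 in WT-1 and 3.43 in WT-2 at day 4, and 7.54, 16.0, 18.8 and 16.5 FPKM in the same order of names at day 2. KO-i was the lowest library at each day. The change was −1.77 ± 0.38 in KO cells (limma, adjusted p = 0.0214) and −2.13 ± 0.38 in WT cells (adjusted p = 0.00737). In KO cells, both Tubb3 and Stmn2 lost their calls when KO-j at day 2 was left out (adjusted p = 0.0893 and 0.0755) or KO-i at day 4 (adjusted p = 0.0871 and 0.0781), and Tubb3 in WT lost its call without WT-1 at day 2 (adjusted p = 0.0507). Over all alternatives the adjusted p in KO cells ran from 0.00616 to 0.0998 for Tubb3 and from 0.00502 to 0.0903 for Stmn2, and in WT cells from 0.00142 to 0.0507 for Tubb3. Tubulin genes are close paralogs, and the sources used here do not say how reads that fit several of them were counted.

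Map2 (chromosome 1, 66221903 to 66489157, plus strand), the dendritic microtubule-associated protein, had 4.79 FPKM in KO-i, 4.05 in KO-j, 3.26 in WT-1 and 3.68 in WT-2 at day 4. At day 2 it had 4.16, 2.98, 2.71 and 2.49 FPKM in the same order of names. Its day change missed the threshold, at 0.25 ± 0.18 in KO cells (limma, adjusted p = 0.361) and 0.31 ± 0.18 in WT cells (adjusted p = 0.252). Dcx (chromosome X, 140290385 to 140367667, minus strand), the doublecortin of migrating neurons, had 0.153 and 0.130 FPKM in KO and 0.236 and 0.178 FPKM in WT libraries at day 4. At day 2 it had 0 and 0.0417 FPKM in KO and 0.0528 and 0.00951 FPKM in WT libraries, all below the filter. Without the filter, Dcx passed in WT cells, at a log2 change of 0.23 (limma, adjusted p = 0.0408), and not in KO cells, at 0.16 (adjusted p = 0.124).

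**Figure D2:**
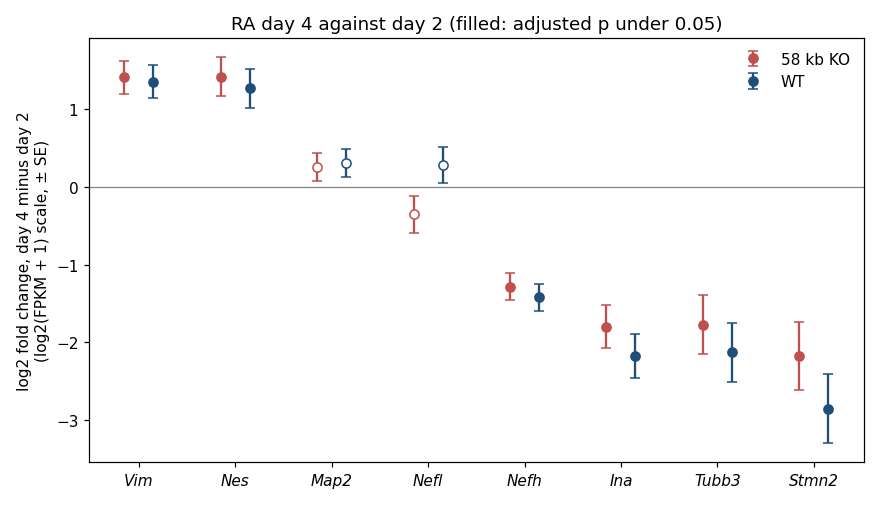
Log2 change from the limma fit (day 4 minus day 2, log2(FPKM + 1) scale, ± SE) of the 8 tested genes in 58 kb KO cells (red) and WT cells (blue), with filled points for an adjusted p under 0.05. Vim and Nes lie between 1.26 and 1.41, Nefh, Ina, Tubb3 and Stmn2 between −1.28 and −2.85, and Map2 and Nefl near 0.

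Other genes of the same structures moved in both directions. Over all genes tested, 10.0% rose and 7.81% fell in KO cells, and 14.4% rose and 10.9% fell in WT cells. Of 8 other cytoplasmic intermediate filament genes tested, 4 rose and 0 fell in KO cells and 4 rose and 2 fell in WT cells. Epithelial keratins made up the rise: Krt19 had 23.0 and 40.5 FPKM in KO libraries at day 4, against 5.52 and 1.73 FPKM at day 2, and in WT 85.3 and 114 FPKM at day 4, against 2.12 and 2.01 FPKM at day 2 (log2 change 2.90 in KO and 5.02 in WT; limma, adjusted p = 0.00675 and 0.000553). Krt18 changed by 1.98 in KO cells and 3.42 in WT cells (limma, adjusted p = 0.00598 and 0.000472). Prph, peripherin, a filament protein of peripheral neurons, was among those that fell in WT (log2 change −2.63, limma, adjusted p = 0.0103) and changed by −1.42 in KO cells, short of the threshold (adjusted p = 0.0951). None of the 3 nuclear lamin genes passed in either genotype.

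Of 13 other tubulin genes tested, 1 rose and 2 fell in KO cells and 2 rose and 4 fell in WT cells. Beside these stand the shares of all genes, 10.0% higher and 7.81% lower in KO cells and 14.4% and 10.9% in WT cells. Tubb4a, a brain isotype, had 21.6 and 20.4 FPKM in KO libraries at day 4, against 10.5 and 4.29 FPKM at day 2, and rose in both genotypes (limma, adjusted p = 0.0245 in KO and 0.00561 in WT). Tubb4b, a widely expressed isotype with 283 to 502 FPKM over the 8 libraries, fell by 0.43 in KO cells and 0.76 in WT cells (adjusted p = 0.0179 and 0.00155). Stmn3, a stathmin close to Stmn2, fell in both genotypes, by 1.02 in KO cells and 1.15 in WT cells (adjusted p = 0.0419 and 0.0205). Crmp1, a collapsin response mediator of growth cones, fell by 2.34 in KO cells and 2.31 in WT cells (adjusted p = 0.00443 and 0.00213), the only 1 of 5 in its list to pass. Among 16 other microtubule-associated proteins, 2 rose and 2 fell in KO cells and 1 rose and 2 fell in WT cells. These counts are near the shares of all genes, so they say little about the list as a whole. Mapre2, which binds growing plus ends, rose by 0.55 in KO cells and 1.09 in WT cells (adjusted p = 0.0375 and 0.00242), and Map7 fell by 0.81 in KO cells and 1.27 in WT cells (adjusted p = 0.0136 and 0.00165).

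Neuronal genes outside the cytoskeleton were also split, and their counts stand beside the same shares of all genes. Of 15 tested, 1 rose and 4 fell in KO cells, with a median log2 change of −0.11, and 4 rose and 5 fell in WT cells, with a median of −0.26. Chga, the chromogranin of secretory granules, fell by 1.35 in KO cells and 1.82 in WT cells (limma, adjusted p = 0.00632 and 0.0011), and Nsg2, a neuronal endosome protein, rose by 1.63 in KO cells and 2.19 in WT cells (adjusted p = 0.015 and 0.00327). Of 13 neuronal transcription factors tested, 2 rose and 1 fell in KO cells and 5 rose and 1 fell in WT cells. Onecut1, a homeodomain factor, rose by 0.68 in KO cells and 1.62 in WT cells (adjusted p = 0.0379 and 0.00138), and Neurod1, a later neuronal factor, fell by 0.79 in KO cells and 0.97 in WT cells (adjusted p = 0.0354 and 0.0132). Rest, the repressor of neuronal genes, had 17.8 and 18.6 FPKM in KO and 17.7 and 17.0 FPKM in WT libraries at day 4, and 18.9 and 19.7 FPKM in KO and 18.5 and 18.3 FPKM in WT libraries at day 2. Of 10 genes for REST and its cofactors, 2 rose and 0 fell in KO cells and 3 rose and 3 fell in WT cells, with Ctdsp1, a small phosphatase that acts with REST, up by 1.08 in KO cells and 1.17 in WT cells (adjusted p = 0.00681 and 0.00251).

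Markers of other cell types moved with the days as well, and their counts too stand beside the shares of all genes given above. Of 10 neural progenitor genes tested, 3 rose and 1 fell in KO cells and 5 rose and 2 fell in WT cells. Cdh2, N-cadherin, rose by 1.18 in KO cells and 2.05 in WT cells (limma, adjusted p = 0.00577 and 0.000472), and Sox2, shared by ES cells and neural progenitors, fell by 1.64 in KO cells and 1.70 in WT cells (adjusted p = 0.0205 and 0.0116). Summed over 8 defining progenitor markers, the level was 88.1 and 114 FPKM in KO and 117 and 113 FPKM in WT libraries at day 4. At day 2 it was 102 and 138 FPKM in KO and 161 and 134 FPKM in WT libraries. The sum was thus lower at day 4 in each library name, while Nes and Vim were higher. Sox2 was a large part of that sum, at 11.4 and 25.3 FPKM in KO and 19.6 and 22.6 FPKM in WT libraries at day 4. Its day 2 values were 43.6 and 69.4 FPKM in KO and 73.9 and 67.8 FPKM in WT libraries. Pax6, also in the sum, was higher at day 4 in each library name, at 29.3 to 41.8 FPKM against 12.0 to 19.4 FPKM. Of 8 pluripotency genes, 5 fell in KO cells and 6 in WT cells and none rose, and of 12 extraembryonic endoderm genes 7 rose in KO cells and 11 in WT cells and none fell. Among 8 fibroblast and mesenchyme genes tested, 6 rose and 0 fell in KO cells and 5 rose and 1 fell in WT cells, led by the smooth muscle genes Acta2 and Tagln, with log2 changes of 4.69 to 5.43. Summed over 7 defining neuron markers, the level was 7.35 to 8.39 FPKM in KO and 8.19 to 11.1 FPKM in WT libraries at day 4, and 12.6 to 12.9 FPKM in KO and 15.3 to 15.9 FPKM in WT libraries at day 2, with Snap25 listed at 0 in 6 of the 8. Summed over 5 pluripotency markers, it was 49.0 and 92.9 FPKM in KO and 65.3 and 68.8 FPKM in WT libraries at day 4, and 176 and 394 FPKM in KO and 363 and 490 FPKM in WT libraries at day 2. The 5 extraembryonic endoderm markers summed to 86.6 and 95.8 FPKM in KO and 154 and 164 FPKM in WT libraries at day 4, and to 38.4 to 60.7 FPKM at day 2. The sum of the 7 fibroblast and mesenchyme markers stayed between 5.88 and 9.96 FPKM in all 8. Within it, Thy1 was lower and Col1a2 higher at day 4 in each library name. The 5 mesendoderm markers summed to 1.44 to 3.09 FPKM at day 4 and 3.22 to 7.36 FPKM at day 2, and the 4 astroglia markers to at most 2.72 FPKM in any library. The part of these cell types in the changes of the 10 genes was not tested.

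No gene of the 10 differed between 58 kb KO and WT cells past the threshold at either day. At day 4, 0 of the 8 tested passed, as did 0% of all genes (limma, 0 of 15705, with 2263 genes at an unadjusted p under 0.05), and at day 2, 0 of the 8 passed, against 0.0255% of all genes (4 of 15705, with 803 at an unadjusted p under 0.05). With 1 library left out, 0 to 7 of all genes passed at day 4 and 0 to 5 at day 2. The median log2 difference of the 8 was −0.066 at day 4 and −0.17 at day 2, against 0.021 and 0.036 over all genes. The test of whether the KO difference itself changed between the days passed for 0 of the 8 and 0 of 15705 genes, with 873 at an unadjusted p under 0.05.

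At day 4, Nefl was lower in both KO libraries, at 4.23 and 5.11 FPKM against 6.40 and 9.59 FPKM in WT (log2 difference −0.65 ± 0.24, limma, adjusted p = 0.291). Vim was lower in both KO libraries at day 4, at 192 and 290 FPKM against 293 and 319 FPKM in WT (−0.37 ± 0.21, adjusted p = 0.45), and at day 2, at 75.9 and 103 FPKM against 112 and 127 FPKM (−0.43 ± 0.21, adjusted p = 0.88). Map2 was higher in both KO libraries at day 4 (0.28 ± 0.18, adjusted p = 0.509) and at day 2 (0.33 ± 0.18, adjusted p = 0.88). Stmn2 and Tubb3 were lower in both KO libraries at day 2, at log2 differences of −0.88 ± 0.44 for Stmn2 and −0.62 ± 0.38 for Tubb3 (limma, adjusted p = 0.88 for each). Such non-overlap was common. At day 4 it held for 3 of the 8 genes, 1 higher and 2 lower, beside 46.6% of all genes, 24.9% higher and 21.7% lower. At day 2 it held for 4 of the 8, 1 higher and 3 lower, beside 37.0% of all genes, 23.1% higher and 13.9% lower. Nes, Nefh and Ina overlapped between genotypes at both days.

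The 2 KO libraries of a day differed from each other more than the WT libraries did for several of the genes. At day 2, KO-i minus the WT mean was −1.47 for Stmn2, −1.12 for Tubb3, −0.76 for Ina and −0.65 for Vim on the log2(FPKM + 1) scale, while KO-j lay at −0.29, −0.12, 0.14 and −0.21. At day 4, KO-i stood at −0.75 for Stmn2, −0.74 for Tubb3 and −0.67 for Vim, and KO-j at 0.35, 0.20 and −0.079. KO-i was therefore the low library for Stmn2, Tubb3 and Vim at both days, and KO-j was on the other side of the WT mean for Stmn2 and Tubb3 at day 4. KO-i at day 2 was also the shallowest library, at 9050000 reads, and had the lowest pluripotency sum of the day. For Map2, KO-i was 0.38 above WT at day 4 and 0.52 at day 2, and the median of 507 genes on its chromosome 1 was 0.29 and 0.31 above WT in KO-i at these days, against 0.022 and 0.042 over all genes. In KO-j, Map2 was 0.18 and 0.14 above WT, with chromosome 1 at −0.021 and 0.010.

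**Figure D3:**
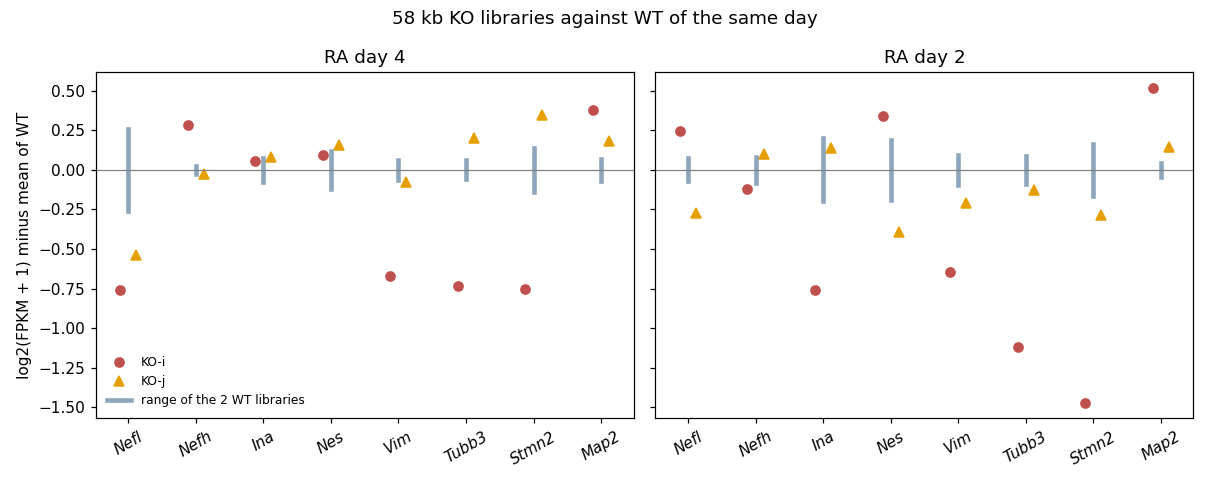
Log2(FPKM + 1) of KO-i (circles) and KO-j (triangles) minus the mean of the 2 WT libraries of the same day, for the 8 tested genes at RA day 4 (left) and day 2 (right), with bars for the range of the 2 WT libraries. KO-i lies lowest for Stmn2, Tubb3 and Vim at both days, and KO-j stays within 0.54 of the WT mean throughout.

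In the sorted neural cells and during LIF withdrawal the 10 genes were followed in 7 columns with no replicate values, so no test was made, and a 2-fold difference on the log2(FPKM + 1) scale was counted over 14189 genes. Lines differ between columns as well as conditions, so cell line and condition cannot be told apart in the comparisons with day 0. Against day 0, 7 of the 10 were higher and 1 lower in NPC, beside 14.7% of all genes higher and 11.7% lower. Against day 0, 3 were higher and 6 lower in NSC, beside 20.5% and 16.5% of all genes, and in ME 3 were higher and 4 lower, beside 9.20% and 10.7%.

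**Figure D4:**
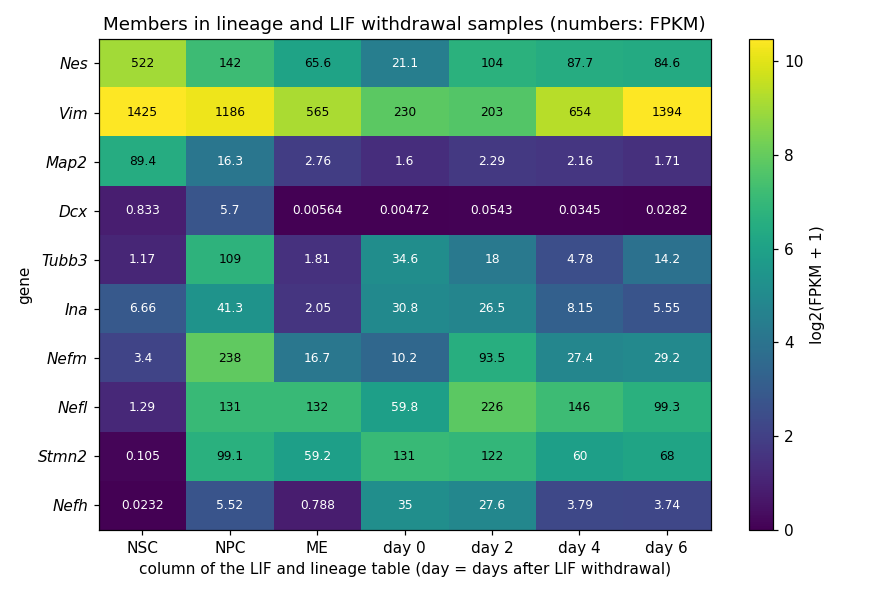
FPKM of the 10 genes (printed in the cells) in NSC, NPC and ME and at 0, 2, 4 and 6 days of LIF withdrawal, with the colour showing log2(FPKM + 1). Nes, Vim and Map2 are brightest in NSC, while Nefm, Ina, Tubb3 and Dcx are brightest in NPC.

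Nes ranked NSC first, with 522 FPKM in NSC, 142 in NPC and 65.6 in ME, and 21.1, 104, 87.7 and 84.6 FPKM at days 0, 2, 4 and 6. It was thus past 2-fold above day 0 in every other column. Vim had 1425 FPKM in NSC, 1186 in NPC and 565 in ME, and 230, 203, 654 and 1394.5 FPKM at days 0, 2, 4 and 6. Vim was therefore as high after 6 days without LIF as in the neural cells, in a column where keratin Krt8 had 1619 FPKM and T, the mesendoderm marker, 56.1 FPKM.

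Map2 showed the steepest difference towards NSC, with 89.4 FPKM in NSC, 16.3 in NPC and 2.76 in ME, and between 1.60 and 2.29 FPKM at all 4 days of LIF withdrawal. Nes, Vim and Map2 shared NSC as their highest column. Nes and Map2 were the 2 genes more than 2-fold higher in NSC than in NPC, beside 12.0% of all genes, and 7 of the 10 were lower, beside 11.2%.

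Stmn2 went the opposite way from Map2, with 0.105 FPKM in NSC, 99.1 in NPC and 59.2 in ME, and 131, 122, 60.0 and 68.0 FPKM at days 0, 2, 4 and 6. Its level in undifferentiated cells was thus the highest of the 7 columns, and NSC nearly lacked it. Tubb3 had 1.17 FPKM in NSC, 109 in NPC and 1.81 in ME, and 34.6, 18.0, 4.78 and 14.2 FPKM at days 0, 2, 4 and 6. Unlike Stmn2, it was over 2-fold higher in NPC than at day 0, with a log2 difference of 1.63. Dcx had 0.833 FPKM in NSC, 5.70 in NPC and 0.00564 in ME, and 0.00472, 0.0543, 0.0345 and 0.0282 FPKM at days 0, 2, 4 and 6, so NPC was the only column above 1 FPKM.

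The neurofilament genes did not share a pattern. Nefm had 3.40 FPKM in NSC, 238 in NPC and 16.7 in ME, and 10.2, 93.5, 27.4 and 29.2 FPKM at days 0, 2, 4 and 6. Its log2 difference from day 0 was 4.42 in NPC and 3.08 at day 2, and the NPC difference was larger than that of 99.7% of all genes. Nefl, its neighbour, had 1.29 FPKM in NSC, 131 in NPC and 132 in ME, and 59.8, 226, 146 and 99.3 FPKM at days 0, 2, 4 and 6. Both were thus highest among the LIF withdrawal columns at day 2 and lowest of all in NSC, but Nefl did not separate NPC from ME.

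Nefh was highest at day 0, with 0.0232 FPKM in NSC, 5.52 in NPC and 0.788 in ME, and 35.0, 27.6, 3.79 and 3.74 FPKM at days 0, 2, 4 and 6. The heavy chain was therefore more than 2-fold lower than at day 0 in all columns but day 2. Ina had 6.66 FPKM in NSC, 41.3 in NPC and 2.05 in ME, and 30.8, 26.5, 8.15 and 5.55 FPKM at days 0, 2, 4 and 6. Nefh, Ina and Tubb3 were all lower at day 4 than at day 0 of LIF withdrawal, at log2 differences of −2.91, −1.80 and −2.62, and these were among the 4 genes that fell in RA. The fourth, Stmn2, differed by −1.11. The RA falls were measured from day 2 of RA, and these differences from day 0 of LIF withdrawal. The RA and LIF tables were normalized separately, so the changes stand side by side and were not tested against each other.

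Over LIF withdrawal as a whole, 3 of the 10 were past 2-fold above day 0 at day 2 (Nefl, Nefm and Nes) and 0 below, beside 4.58% and 5.07% of all genes. At day 4, 4 were higher, with Vim added to those 3, and 4 were lower, beside 6.53% and 8.62%. At day 6, 3 were higher (Nefm, Nes and Vim) and 3 lower (Nefh, Ina and Tubb3), beside 11.4% and 6.97%. Nes and Nefm were on the higher side at all 3 times.

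Of 25 other neuronal genes measured, 18 were past 2-fold above day 0 in NPC and 0 below, with a median log2 difference of 1.32 against 0.053 over all genes. Of all genes, 14.7% were higher and 11.7% lower in this comparison. Of 17 neuronal transcription factors, 15 were higher and 0 lower (median 2.07), and all 5 collapsin response mediators were higher (median 2.54), among them Dpysl4 with 60.2 FPKM in NPC and 1.20 at day 0. Of 8 other cytoplasmic intermediate filament genes, 0 were higher and 5 lower, with Krt8 at 5.15 FPKM in NPC and 128 at day 0. Stmn3 had 26.5 FPKM in NPC and 3.25 at day 0, and Tuba1a, the main alpha-tubulin of young neurons, 210 and 52.1 FPKM.

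In NSC against NPC, 1 of the 25 other neuronal genes was higher and 17 lower (median −1.31), and 5 of 7 astroglial and oligodendroglial genes were higher and 0 lower. Of all genes, 12.0% were higher and 11.2% lower. Olig2, an oligodendrocyte lineage factor, had 211 FPKM in NSC and 0.227 in NPC, while Gfap, the astrocyte filament, was at 0.117 FPKM in NSC and 0.0144 in NPC. Rest had 16.5 FPKM in NSC, 17.9 in NPC and 24.1 in ME, and 66.6, 34.4, 24.2 and 22.2 FPKM at days 0, 2, 4 and 6. The 7 neuron markers summed to 14.5 FPKM in NSC, 85.4 in NPC and 4.32 in ME, against 15.8 at day 0, and all 7 reached 1 FPKM in NPC. The 8 neural progenitor markers summed to 1373 FPKM in NSC, 564 in NPC and 28.7 in ME, against 158 at day 0. Single genes made up most of some sums: Fabp7 had 1227 FPKM in NSC and 225 in NPC, and Sox2 had 152 at day 0. The 5 pluripotency markers summed to 2.52 FPKM in NSC, 118 in NPC and 527 in ME, against 1415 at day 0. Of 13 neural progenitor genes measured, 2 were past 2-fold higher and 8 lower in NSC than in NPC (median −1.60). The part of neurons among the sorted cells in these values was not tested.

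Patterns over the 7 columns were compared by the root mean square difference of mean-centred log2(FPKM + 1), over 9709 genes that reached 5 FPKM, as a description. Closest to Nes were Hmgn3 (0.387), Cpd (0.422) and Fads2 (0.461). Of the other 9 genes, Map2 (0.963) and Vim (1.01) came nearest, only in places 1311 and 1646. Closest to Tubb3 were Sncg (0.827), Snora78 (0.848) and Grb10 (0.937), with Ina in place 7 (1.03). Closest to Stmn2 were Lin28a (0.483), Igf2bp1 (0.598) and Dnmt3b (0.633), with Nefl in place 8 (0.758) and Tubb3 only in place 513. Lin28a had 0.0538 FPKM in NSC, 76.1 in NPC and 77.5 in ME, and 58.4, 104, 78.5 and 59.7 FPKM at days 0, 2, 4 and 6, so that like Stmn2 it was nearly absent from NSC alone.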

How the data were processed

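RNA-seq values were taken from 2 tables as the authors deposited them, in FPKM, a unit that the values fit and that no header names. Which program made them, the sources used here do not say. Per the submitters' processing notes, tools and build were TopHat2 2.0.11, MACS 1.4.2, mm9, CASAVA and Bowtie 1.0.0, with no role given, and coordinates are mm9 as in the files. The RA table has 8 library columns and the table of LIF withdrawal and sorted cells 7 columns, 3 of them the authors' means, and 0 further per-sample columns were left aside. The RA table was tested with limma 3.58.1 in R 4.3.3 on log2(FPKM + 1), with 4 group means, an intensity trend in the variance and Benjamini-Hochberg adjustment over the 15705 genes that reached 1 FPKM in 2 or more libraries (4 residual and 3.5 prior degrees of freedom). A fold change on this scale understates that of low genes. The procedure was also run on simulated data with changes placed only in KO cells at day 2 and no day difference in WT cells. That setting differs from the real data, and no result here rests on it. The LIF table had no test. Groups came from the labels. Depth is an estimate from the steps between low values, and intervals from counts could not be given. A further RA set is among the 34 samples not analysed here.

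The 10 genes and all gene lists were chosen with earlier results of these data known. All 10 were named in every comparison. From each list, up to 2 genes a direction with the smallest p (RA) or the largest difference (LIF table) among those past the threshold were named, besides defining markers; 1 gene that this rule names is not reported here. Rest and Gfap were named as well, after their values were seen. Alternatives were other pseudocounts, filters, scalings, fits and libraries left out. The library names were not taken as pairs in the main fit. Deviations from the group means at day 2 and day 4 correlated at 0.26 for the KO names and 0.0849 for the WT names. Deviations were thus partly shared under a name, more so for KO. A fit with the name as a block is given below, and in it more of all genes passed between the days.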

Additional observations from a re-analysis of the deposited data

How the results depend on the processing

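The 2 rises and 4 falls of RA day 4 against day 2 kept their direction under every alternative run, and in WT cells 2 rises and 4 falls passed under the other pseudocounts, scalings and fits and the stricter filter. With no filter on low values 3 rose in WT, the third being Dcx (log2 change 0.23, limma, adjusted p = 0.0408). In KO cells the falls numbered 2 with no filter on low values (Tubb3 at an adjusted p of 0.0651 and Stmn2 at 0.0601, limma), and with the 4 KO libraries fitted alone 0 rises and 0 falls passed. Leaving out 1 library at a time gave 1 to 2 rises and 2 to 4 falls in KO cells, and 1 to 2 rises and 3 to 4 falls in WT cells. Leaving out KO-j at both days, an alternative chosen after seeing the data, gave 1 rise in KO cells, with Nes at an adjusted p of 0.0807 and Nefh at 0.0556. The cause of these losses beyond the smaller number of libraries was not tested. With the library name as a replicate block in the fit, the members passing were again 2 higher and 4 lower in each genotype and 0 between genotypes, while all genes passing between the days numbered 4186 in KO cells and 5313 in WT cells, against 2802 and 3973 without it. Over all genes, 396 passed between the days in KO cells with the 2 groups alone, 1596 with no filter and 980 to 2159 with 1 library left out, and 1494 to 4273 in WT cells with 1 left out. Between KO and WT, all genes passing numbered 0 to 7 at day 4 and 0 to 5 at day 2 with 1 library left out, and 1 at day 4 and 7 at day 2 with no filter, against 0 and 4.

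No difference between KO and WT passed for the 10 genes under any alternative, and several uncalled differences changed sign with 1 library left out. Their log2 ranges were, at day 4, −0.0070 to 0.14 for Ina, −0.027 to 0.28 for Nefh, −0.74 to 0.20 for Tubb3 and −0.75 to 0.35 for Stmn2. At day 2 they were −0.76 to 0.14 for Ina, −0.12 to 0.10 for Nefh, −0.27 to 0.25 for Nefl and −0.39 to 0.34 for Nes. For the change of the KO difference between the days they were −0.071 to 0.83 for Ina, −0.24 to 0.13 for Map2, −0.017 to 0.29 for Nefh, −0.22 to 0.51 for Nes, −0.14 to 0.86 for Tubb3 and −0.24 to 0.35 for Vim. Without KO-i at both days, also chosen after seeing the data, the values that changed sign were 0.35 for Stmn2, 0.20 for Tubb3 and −0.027 for Nefh at day 4, 0.14 for Ina and 0.10 for Nefh at day 2, −0.13 for Nefh, −0.057 for Ina and 0.035 for Map2 in the change between the days, and 0.017 for the day change of Nefl in KO cells. Without KO-j at both days they were 0.25 for Nefl and 0.34 for Nes at day 2, and −0.25 for Nes and −0.021 for Vim in the change between the days. No scaling moved the median of all genes by over 0.1.

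In the LIF table, a 1.5-fold threshold gave 1 lower gene at day 2, and a 4-fold threshold gave 1 higher and 2 lower at day 4, 1 higher at day 6, 0 higher in ME and 1 higher in NSC against NPC; the other counts stayed within 1.5 times. Nefm and Dcx were below the filter of 1 FPKM in the RA cells and were tested only without it.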
